A study of Homo sapiens with 3 samples.

Results

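The genes described here are the machinery and cargo receptors of macroautophagy, the route by which cytoplasm is enclosed in a double-membraned autophagosome and delivered to the lysosome. They were chosen by symbol in the platform annotation: ATG, ULK, WIPI or RUBCN followed by a digit or by nothing, the MAP1LC3 and GABARAP families, and 15 named genes from SQSTM1 to BNIP3. The rule found 37 genes among 14884 with a named probe set, 36 of them protein coding. No measured value entered the rule, but it was chosen with earlier results of these data known. BECN1, PIK3C3, PIK3R4, NBR1, WIPI1, WIPI2, the ATG4 proteases and ATG9B had no named probe set and have no value here.

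The samples were 3 cultures of A549, an established human lung cancer line, profiled on 1-colour Affymetrix arrays. They had been transfected by lipofection with an siRNA against TAZ (siTAZ), an siRNA against YAP (siYAP) or a control siRNA (siNC), and RNA was taken 48 h later. Each group was 1 array, so no difference below could be set against the spread between cultures, no test was possible and no p-value is given. TAZ (gene symbol WWTR1) and YAP (YAP1) are the transcriptional co-activators at the end of the Hippo pathway, and the series asked which genes depend on each. WWTR1 was 5.81 in siTAZ cells, against 6.50 in siYAP cells and 6.50 in siNC cells, 1.61-fold lower in siTAZ. YAP1 was 6.87 in siYAP cells, against 8.24 in siTAZ cells and 8.45 in siNC cells, 2.99-fold lower in siYAP than in siNC.

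Autophagy starts with the ULK1 kinase complex, which activates a class III phosphatidylinositol 3-kinase complex on a growing membrane. ATG9 vesicles and the lipid-transfer proteins ATG2A and ATG2B feed that membrane, and a ubiquitin-like conjugation system attaches the ATG8 proteins (the LC3 and GABARAP families) to it. Cargo receptors such as SQSTM1, also known as p62, hold ubiquitinated cargo and ATG8 at once, and TFEB is a transcription factor of lysosome and autophagy genes through E-box-containing CLEAR elements. In cells with much NRF2 activity, such as A549 with its mutated KEAP1, SQSTM1 is also known as an NRF2 target gene.

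Values are levels on a log2 scale, and a difference is the level in the first-named array minus that in the second. A gene was counted as lower or higher at a difference of 1.5-fold (0.58 on the log2 scale) or 2-fold. All 37 genes reached the filter, a mean level of at least 4.27, the median over all probe sets, as did 10768 of the named genes in all. TFEB passed through its knockdown arrays and MAP1LC3C through the siTAZ array alone, since their other values lay under the filter, so both had to be higher there. The mean of MAP1LC3A lay within 0.02 above the filter.

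SQSTM1 was the one gene of the 37 with a large difference, and it was low in siTAZ cells. Its level was 6.84 in siTAZ cells and 7.84 in siYAP cells, against 8.19 in siNC cells. The differences from siNC were -1.35 in siTAZ and -0.35 in siYAP on the log2 scale, which is 2.54-fold and 1.27-fold lower. Among the 10768 kept genes the siTAZ difference ranked 6 from the lowest and the siYAP difference ranked 191. SQSTM1 was read from a single probe set, so no second set of probes was at hand to compare it with.

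The direct difference, which does not use the control array, was 0.997 on the log2 scale for SQSTM1, higher in siYAP than in siTAZ cells. That is 1.996-fold, just short of 2-fold, and ranked 8 from the highest among the kept genes. Against the mean of the siNC and siTAZ arrays SQSTM1 in siYAP cells was 0.32 higher, a sign that follows from the low siTAZ value in that mean and does not bear on the difference from siNC.

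The promoter windows of 3 genes are printed from RefSeq on build GRCh38.p14: SQSTM1, the gene with the most negative difference in siTAZ, LAMP1, the protein-coding gene with the most positive one, and GABARAPL2, 1 of 6 genes whose window holds a TEAD motif. Each runs 5′ to 3′ on the gene's plus strand from 250 bases before to 50 bases after the annotated start, and capitals mark the motifs searched on either strand: GGAATG (TEAD), CACGTG (E-box, the core of the CLEAR element), TGANTCA (AP-1) and TGACNNNGC (antioxidant response element, the NRF2 site).
SQSTM1 promoter, chr5:179806143-179806442: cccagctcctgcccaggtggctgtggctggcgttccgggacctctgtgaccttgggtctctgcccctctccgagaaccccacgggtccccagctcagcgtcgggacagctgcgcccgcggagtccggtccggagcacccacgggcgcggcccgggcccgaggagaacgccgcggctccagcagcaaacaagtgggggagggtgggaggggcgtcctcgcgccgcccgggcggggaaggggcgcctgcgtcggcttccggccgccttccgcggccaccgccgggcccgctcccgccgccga
LAMP1 promoter, chr13:113296989-113297288: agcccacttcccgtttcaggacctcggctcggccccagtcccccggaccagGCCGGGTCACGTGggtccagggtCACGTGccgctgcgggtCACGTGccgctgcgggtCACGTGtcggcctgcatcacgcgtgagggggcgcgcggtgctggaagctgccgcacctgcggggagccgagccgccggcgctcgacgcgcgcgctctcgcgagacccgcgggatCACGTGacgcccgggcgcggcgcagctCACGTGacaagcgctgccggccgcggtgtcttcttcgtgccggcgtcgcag
GABARAPL2 promoter, chr16:75566129-75566428: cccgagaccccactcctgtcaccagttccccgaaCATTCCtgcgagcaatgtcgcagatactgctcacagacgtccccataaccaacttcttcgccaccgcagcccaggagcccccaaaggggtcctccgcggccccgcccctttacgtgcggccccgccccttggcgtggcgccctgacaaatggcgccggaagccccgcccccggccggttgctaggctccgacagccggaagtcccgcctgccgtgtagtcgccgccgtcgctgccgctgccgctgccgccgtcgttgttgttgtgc

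The SQSTM1 window held none of the 4 motifs, so its letters are all in lower case. The LAMP1 window held 6 E-boxes and 1 match to the antioxidant response element, which overlaps the first E-box by 2 bases. The GABARAPL2 window held 1 TEAD motif, on the opposite strand. Of the 37 genes 31 had a promoter in the RefSeq table. UVRAG and LAMP2, which were also to be printed, were not among these 31. Shares are set beside those of the 10749 windows of genes named on the array. The E-box was in 5 of the 31 windows (ATG14, ATG3, BNIP3, LAMP1 and ULK3; 16.1%), against 9.02% of windows of array genes and 7.43% of all 27305 windows. The TEAD motif was in 6 (ATG13, ATG7, GABARAPL2, MAP1LC3C, OPTN and ULK1; 19.4%), against 11.7% and 14%. The antioxidant response element was in 5 (ATG101, CALCOCO2, LAMP1, MAP1LC3B and ULK3; 16.1%), against 14.7% and 13.6%, and the AP-1 motif in 0, against 5.92% and 7.76%. These are matches of letters in a short window and not binding sites.

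**Figure D1:**
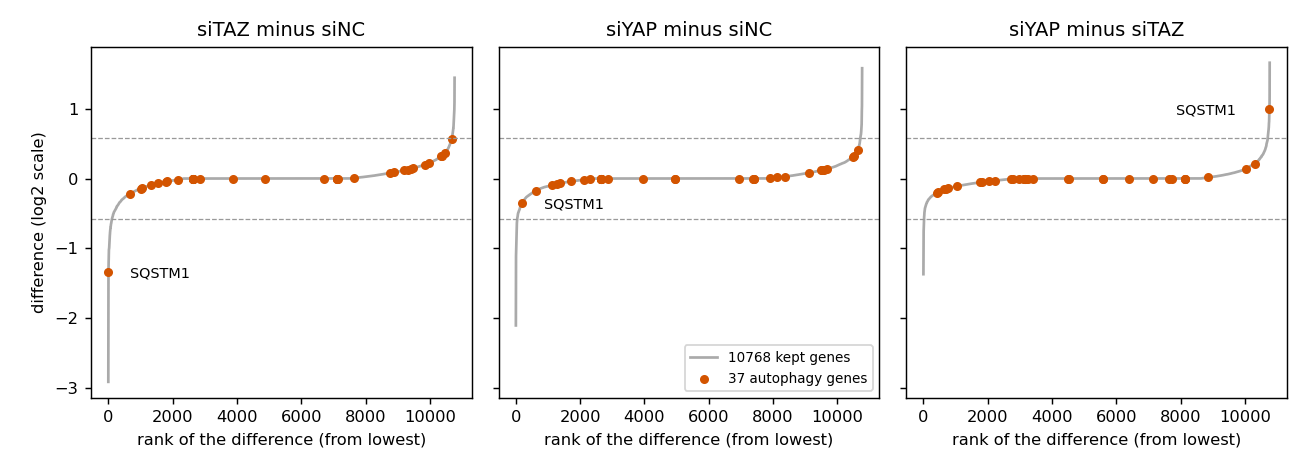
Differences on the log2 scale (y axis) of the 10768 kept genes, ordered from lowest to highest rank (x axis), for siTAZ minus siNC, siYAP minus siNC and siYAP minus siTAZ. Orange points are the 37 autophagy genes and dashed lines mark 1.5-fold. SQSTM1 stands at -1.35 in the first panel, at -0.35 in the second and at 0.997 in the third, and no other autophagy gene lies beyond the dashed lines.

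In the siTAZ comparison 1 of the 37 genes, SQSTM1, was at least 1.5-fold from the control (2.7%), beside 1.78% of all kept genes, and the same gene was at least 2-fold from it, beside 0.316% of all kept genes. In the siYAP comparison 0 of the 37 genes reached 1.5-fold, beside 0.901% of all kept genes, or 2-fold, beside 0.195%. Between siYAP and siTAZ 1 gene reached 1.5-fold, beside 0.743% of all kept genes, and 0 reached 2-fold, beside 0.0929%. A single gene makes 2.7% of 37, so these shares do not set the autophagy genes apart from the rest. The median difference of the 37 was 0 in each comparison, as it was over all kept genes.

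**Figure D2:**
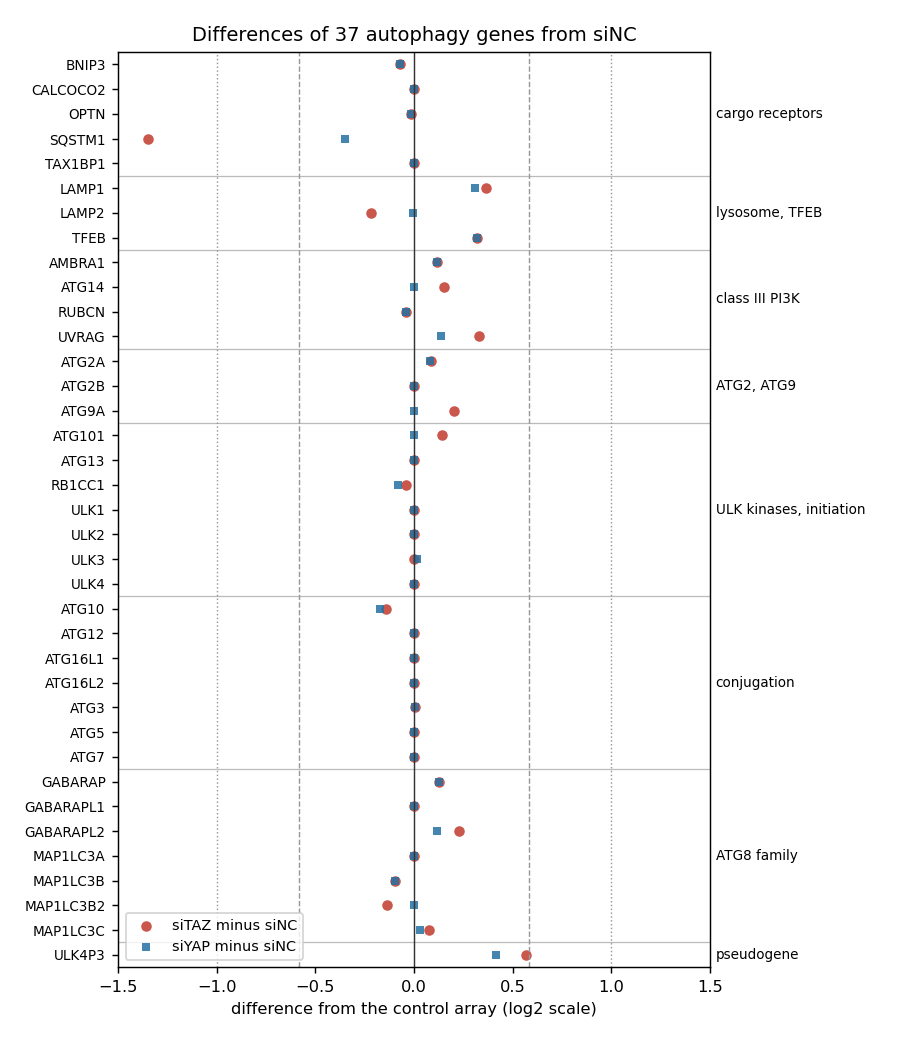
Difference from the siNC array on the log2 scale (x axis) for each of the 37 autophagy genes, grouped by role. Red circles are siTAZ minus siNC and blue squares siYAP minus siNC, with dashed lines at 1.5-fold and dotted lines at 2-fold. Apart from SQSTM1, no point is farther from 0 than ULK4P3 at 0.57 in siTAZ cells.

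The other 4 cargo receptors among the 37 genes stayed within 0.1 of the control in both knockdown arrays. So did 71.6% of all kept genes in siTAZ and 76.2% in siYAP. OPTN, CALCOCO2 (NDP52) and TAX1BP1 are ubiquitin-binding receptors like SQSTM1, and BNIP3 is a mitochondrial receptor known for its induction by hypoxia. BNIP3 was 9.80 in siTAZ cells and 9.80 in siYAP cells, against 9.88 in siNC cells. OPTN was 6.99 in each knockdown array, against 7.01 in siNC cells. CALCOCO2 (6.24) and TAX1BP1 (10.16) had the same value in all 3 arrays.

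The lysosomal membrane glycoproteins LAMP1 and LAMP2 differed in opposite directions in siTAZ cells. LAMP1 was 8.56 in siTAZ cells and 8.51 in siYAP cells, against 8.20 in siNC cells, which is 1.29-fold and 1.24-fold higher. LAMP2 was 8.37 in siTAZ cells and 8.59 in siYAP cells, against 8.59 in siNC cells, so its differences were -0.22 in siTAZ and -0.0036 in siYAP on the log2 scale. TFEB was 4.41 in both knockdown arrays, with identical values, against 4.09 in siNC cells. That difference of 0.32 was read at a dim level around the filter, which leaves its size uncertain. None of the 3 genes reached 1.5-fold.

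In the class III kinase complex the subunit UVRAG, which marks the form of the complex found on endosomes and late autophagosomes, had the largest difference. UVRAG was 7.89 in siTAZ cells and 7.70 in siYAP cells, against 7.56 in siNC cells, or 1.26-fold and 1.10-fold higher. ATG14, the subunit of the autophagosome-forming complex, was 7.20 in siTAZ cells, against 7.05 in both the siYAP and siNC arrays, which were identical. AMBRA1, a Beclin 1 regulator, was 7.29 in both knockdown arrays, against 7.17 in siNC cells. RUBCN, an inhibitor of the endosomal form, was 5.82 in both knockdown arrays, against 5.86 in siNC cells.

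Among the genes that supply lipid, ATG9A, the transmembrane scramblase of the ATG9 vesicles, was 7.74 in siTAZ cells, against 7.53 in the siYAP and siNC arrays, which shared a value. ATG2A was 6.32 in both the siTAZ and siYAP arrays after rounding, against 6.24 in siNC cells. ATG2B (7.37) was identical in all 3.

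The ULK kinases and the proteins of the initiation complex differed from the control by -0.043 to 0.14 in siTAZ and by -0.080 to 0.016 in siYAP. Of 7 genes, 5 had the same value in the siTAZ and siNC arrays, beside 48.5% of all kept genes. Likewise 5 had the same value in the siYAP and siNC arrays, beside 51.3%. ATG101, which stabilises ATG13, was 6.92 in siTAZ cells, against 6.78 in the siYAP and siNC arrays. Its dimmer second probe set was 5.80 in all 3 arrays, so the 0.14 higher value rests on the brighter one. RB1CC1 (FIP200), the scaffold of the complex, was 8.44 in siTAZ cells and 8.40 in siYAP cells, against 8.48 in siNC cells. ULK3, a related kinase, was 6.69 in siYAP cells, against 6.67 in the siTAZ and siNC arrays. ULK1 (6.32), ULK2 (6.99), ATG13 (7.30) and ULK4 (4.68), which encodes a pseudokinase, were identical in all 3.

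Of the 7 conjugation genes 5 were identical in all 3 arrays, beside 41.1% of all kept genes. They were ATG5 (7.61), ATG7 (5.93), ATG12 (5.52), ATG16L1 (7.54) and ATG16L2 (4.93). ATG7 is the E1-like enzyme, and ATG5, ATG12 and ATG16L1 form the complex that directs ATG8 lipidation. ATG3, the E2-like enzyme for ATG8, was 8.90 in each array after rounding. ATG10, the E2-like enzyme for ATG12, was 5.25 in siTAZ cells and 5.22 in siYAP cells, against 5.40 in siNC cells, 1.10-fold and 1.13-fold lower.

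The ATG8 family had no gene at 1.5-fold either, with differences of -0.14 to 0.23 in siTAZ and -0.098 to 0.13 in siYAP. GABARAPL2 was 8.75 in siTAZ cells and 8.64 in siYAP cells, against 8.52 in siNC cells. GABARAP was 10.15 in both knockdown arrays, against 10.03 in siNC cells. In the LC3 branch MAP1LC3B, the LC3 protein most often used as an autophagosome marker, was 4.73 in both knockdown arrays, against 4.82 in siNC cells. MAP1LC3B2 was 5.99 in siTAZ cells, against 6.12 in the siYAP and siNC arrays. The 2 genes are near-identical copies, so how their probes divide the signal is uncertain. MAP1LC3C was 4.31 in siTAZ cells and 4.26 in siYAP cells, against 4.23 in siNC cells. GABARAPL1 (5.61) and MAP1LC3A (4.28) were identical in all 3.

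The rule also took 1 pseudogene, ULK4P3, a partial copy of ULK4. Its level was 6.06 in siTAZ cells and 5.91 in siYAP cells, against 5.50 in siNC cells. At 1.48-fold in siTAZ it was the nearest gene under 1.5-fold, and it was 1.33-fold higher in siYAP. Related ULK4 pseudogenes are close copies, so its probes may take their signal, while ULK4 itself showed the same value in all 3 arrays.

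**Figure D3:**
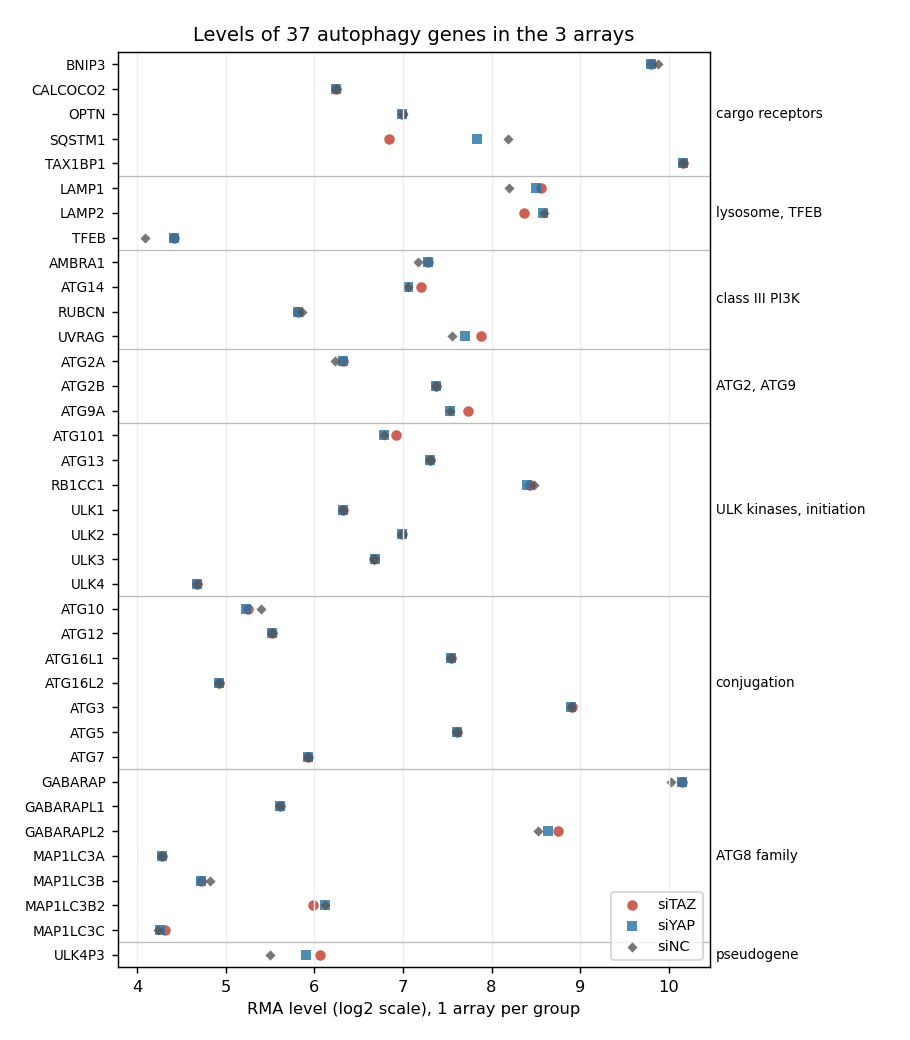
RMA level on the log2 scale (x axis) of the 37 autophagy genes in the siTAZ (red circles), siYAP (blue squares) and siNC (grey diamonds) arrays, 1 array per group. Levels are to be compared within a row, since probe sets differ in brightness, and the widest row is SQSTM1 with 6.84, 7.84 and 8.19.

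Much of the closeness between arrays took the form of exactly equal values. All 3 arrays had the same value, to 6 decimals, for 14 of the 37 genes (37.8%), beside 41.1% of all kept genes. The siTAZ and siYAP arrays alone were equal for 7 genes (18.9%, beside 12.8%): AMBRA1, BNIP3, GABARAP, MAP1LC3B, OPTN, RUBCN and TFEB. The siYAP and siNC arrays alone were equal for 4 (10.8%, beside 10.2%): ATG101, ATG14, ATG9A and MAP1LC3B2. Only ULK3 was equal in siTAZ and siNC alone (2.7%, beside 7.46%), and 11 genes, SQSTM1, LAMP1, LAMP2 and UVRAG among them, had 3 different values (29.7%, beside 28.5%). How these ties arose was not tested, so an equal value does not show that a transcript was unchanged.

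**Figure D4:**
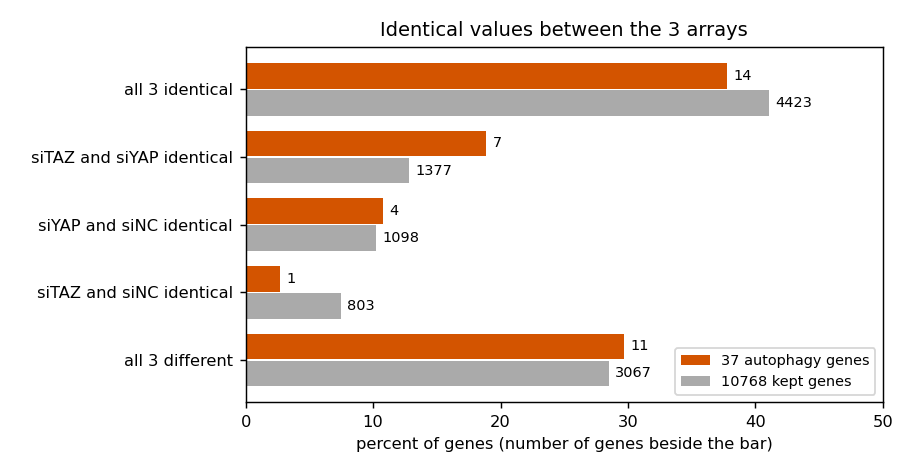
Percent of genes (x axis) whose values were equal in all 3 arrays, in a given pair only, or in none, for the 37 autophagy genes (orange) and all 10768 kept genes (grey), with the number of genes beside each bar. Equal values in all 3 arrays were 37.8% of the autophagy genes and 41.1% of all kept genes.

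Among the genes with a difference in siTAZ, 13 were higher, TFEB and MAP1LC3C included, and 9 lower than siNC, which is 35.1% and 24.3% of the 37, beside 29.7% and 21.7% of all kept genes. In siYAP 11 were higher, TFEB included, and 8 lower (29.7% and 21.6%, beside 27% and 21.7%). Between siYAP and siTAZ 4 were higher and 12, MAP1LC3C included, were lower in siYAP (10.8% and 32.4%, beside 19.9% and 26.2%). Over the 3 arrays 8 of the 37 genes spanned at least 0.2 on the log2 scale: SQSTM1, ULK4P3, LAMP1, UVRAG, TFEB, GABARAPL2, LAMP2 and ATG9A. TFEB is among them although it passed the filter through its knockdown arrays. The share of all kept genes with such a span was not counted, so these 8 genes do not set the 37 apart. The median span was 0.071 for the 37, with SQSTM1 and TFEB included, and 0.032 for all kept genes. Differences of at least 0.2 from siNC were 21.6% of the 37 in siTAZ, beside 15.6% of all kept genes. In siYAP they were 10.8%, beside 11.4%. Both comparisons with siNC share the control array, so their values are given side by side and not as support for each other.

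Genes that act with the autophagy machinery were taken from 8 lists of 238 genes, of which 139 were named and kept. In siTAZ 2 of the 139 were at least 1.5-fold lower and 1 was at least 1.5-fold higher (2.16%, beside 1.78% of all kept genes). In siYAP 0 of the 139 reached 1.5-fold, beside 0.901%. IDS, the lysosomal enzyme iduronate 2-sulfatase, was 7.69 in siTAZ cells and 8.30 in siYAP cells, against 8.61 in siNC cells, 1.89-fold and 1.24-fold lower. TMEM41B, an endoplasmic reticulum scramblase needed for autophagosome formation, was 7.40 in siTAZ cells and 8.02 in siYAP cells, against 8.09 in siNC cells, 1.61-fold and 1.05-fold lower. EI24, an endoplasmic reticulum protein with a role in autophagy, was 8.70 in siTAZ cells and 8.65 in siYAP cells, against 8.07 in siNC cells, 1.54-fold and 1.49-fold higher.

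By list, the median difference was 0 in siTAZ and in siYAP for nutrient sensing through mTORC1 and AMPK (24 genes kept), other receptors and mitophagy (18), initiation and membrane supply (25), lysosomal proteins (30) and transcription factors (16). It was 0.016 in both for the 15 fusion genes. The V-ATPase list had 0 of its 23 genes named. MTOR (7.90) and TFE3 (7.84), a relative of TFEB, were equal in all 3 arrays.

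The NRF2 axis was listed because SQSTM1 belongs to it. Of 25 listed NRF2 targets 11 were named and kept, and the others have no value here. The 11 had a median of -0.039 in siTAZ and -0.013 in siYAP. Their range was -0.19 to 0.16 in siTAZ and -0.25 to 0.17 in siYAP, and 0 reached 1.5-fold, beside 1.78% and 0.901% of all kept genes. In siTAZ 6 of the 11 were lower, 4 higher and 1 equal, beside 21.7%, 29.7% and 48.5% of all kept genes. In siYAP 7 of the 11 were lower, 1 higher and 3 equal, beside 21.7%, 27% and 51.3%. With few equal values among so few genes, these counts do not set the 11 apart. NFE2L2, which encodes NRF2, was 6.96 in siTAZ cells and 7.03 in siYAP cells, against 7.11 in siNC cells. KEAP1, its inhibitor and a binding partner of SQSTM1, was 8.34 in both knockdown arrays, against 8.39 in siNC cells.

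**Figure D5:**
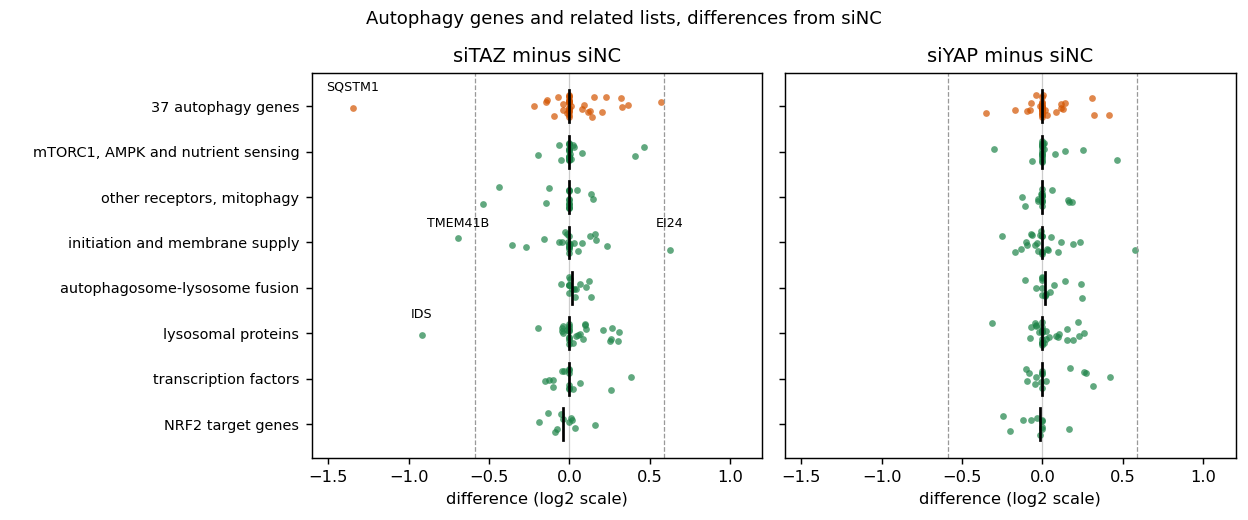
Difference from siNC on the log2 scale (x axis) for the 37 autophagy genes (orange) and the kept genes of 7 related lists (green), in siTAZ on the left and siYAP on the right. Each point is a gene, placed at random height within its row, black bars are list medians, dashed lines mark 1.5-fold and the genes beyond them are named: SQSTM1, TMEM41B, EI24 and IDS in siTAZ and 0 genes in siYAP.

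The cell type was checked on marker genes. Epithelial keratins and EPCAM were well above the filter in each array (KRT18 at 11.4 to 11.6, EPCAM at 8.13 to 8.23), and CDH1 was not named. Of the lung lineage markers NKX2-1 (4.61 to 4.68), SFTPB (4.88) and SFTPC (5.04) were dim and NAPSA was under the filter. Of the 5 leukocyte markers 2 were named, CD14 (4.49 to 4.55) just above the filter and LYZ under it. Of the 4 endothelial markers 3 were named, VWF (4.42) just above the filter and PECAM1 and KDR under it. LUM, a fibroblast marker, was 8.14 in siTAZ cells and 8.10 in siYAP cells, against 7.45 in siNC cells. That is 1.61-fold and 1.58-fold higher, past the 1.5-fold bound. DCN was at 2.38, under the filter, in all 3. Of the 5 fibroblast markers these 2 were named, and the source of the LUM difference was not tested.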

How the data were processed

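Per the submitters' processing notes, the authors summarised the arrays with RMA; no RMA version, annotation or build is given in the sources used here. The deposited values, 1 per probe set for 53617 probe sets on 3 arrays, were read as log2 levels, since they ran from 0.96 to 13.5. RMA includes quantile normalization, so values are relative to the other probe sets of an array. Per the labels' protocols, 500 ng of RNA was labelled for each array. Their number, 1 per group, limits the precision, and no test was run.

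The platform annotation gave 16098 probe sets 1 symbol and 0 several; the rest are unnamed. All 16098 Entrez identifiers matched RefSeq (GRCh38.p14), with 0 symbols changed. The brightest probe set by mean represented its gene (779 genes had more than 1, of the 37 only ATG101), and genes with a mean of at least 4.27 were kept. Differences, counts and medians were computed in Python 3.11.15 with pandas 2.3.3 and numpy 2.4.6, and the counting was tested on simulated data. The members, lists, motifs and alternatives were chosen with earlier results of these data known. All 37 genes are named; SQSTM1, those at 1.5-fold and the 4 most negative and 4 most positive of each comparison were to be given in all arrays, and of the other lists up to 4 genes at 1.5-fold plus KEAP1, NFE2L2, MTOR and TFE3. The alternatives were other filters, a shift to a median of 0, a new quantile normalization, loess subtraction, the mean of all probe sets and a changed reference.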

Additional observations from a re-analysis of the deposited data

How the results depend on the processing

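With 1 array per group nothing below measures reproducibility. SQSTM1 was the only one of the 37 genes at 1.5-fold in siTAZ and in siYAP minus siTAZ, and 0 were at 1.5-fold in siYAP, under each of the 7 alternatives to processing that applied. Several of these could not have changed that. The filters leave the difference of a gene as it was, and the shift was 0 in each comparison. The mean of all probe sets could change only ATG101 among the 37. A single-gene value was said to have moved when it shifted by at least 0.128, the SD of siYAP minus siTAZ across kept genes. Only a reference that averaged siNC with the remaining knockdown moved any: SQSTM1 became -1.17 in siTAZ and 0.32 in siYAP, against -1.35 and -0.35, and 7 of 72 differences of the other genes moved. Among them UVRAG in siYAP changed sign to -0.026. That reference contains the other knockdown, so it takes in whatever that array shows. It also gave 92 kept genes at 1.5-fold in siTAZ in place of 192, and 31 in siYAP in place of 97. SQSTM1 otherwise ranged from -1.36 to -1.35 in siTAZ. A filter at the 75th percentile (5.81) kept 28 of the 37 genes. Leaving out equal values, chosen after seeing the data, gave medians of 0.083 in siTAZ (22 genes) and 0.016 in siYAP (19 genes), beside 0.027 and 0.018 for all kept genes; leaving out ULK4P3, also chosen afterwards, left every median at 0. No paired analysis was possible because each group has 1 array. Genes near the filter, such as TFEB, MAP1LC3A and MAP1LC3C, are too dim for the size of a difference to be read closely.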

Other observations

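Single genes of the related lists that lay under 1.5-fold are named here after their values were seen. The list of other receptors and mitophagy genes had 3 of 18 genes higher, 5 lower and 10 equal in siTAZ, and 4 higher, 5 lower and 9 equal in siYAP, where 29.7% of all kept genes were higher and 21.7% lower in siTAZ, and 27% and 21.7% in siYAP. Its lowest genes in siTAZ were receptors for autophagy of the endoplasmic reticulum. RTN3, a reticulon, was 7.71 in siTAZ cells and 8.22 in siYAP cells, against 8.25 in siNC cells, and ATL3, an atlastin, was 9.30 in siTAZ cells and 9.71 in siYAP cells, against 9.74 in siNC cells. SEC62 and TEX264, receptors of the same kind, were equal in siTAZ and siNC cells, at 8.91 and 5.24.

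The nutrient-sensing list had 7 of 24 genes higher, 3 lower and 14 equal in siTAZ, and 7 higher, 2 lower and 15 equal in siYAP. NPRL3, a subunit of the GATOR1 complex that restrains mTORC1, was 7.44 in both knockdown arrays, against 6.98 in siNC cells. STK11, which encodes the AMPK-activating kinase LKB1, was 6.49 in siTAZ cells and 6.34 in siYAP cells, against 6.09 in siNC cells. TSC1, another restraint on mTORC1, was 7.27 in siTAZ cells and 7.17 in siYAP cells, against 7.47 in siNC cells. The lysosomal list had 14 of 30 genes higher, 7 lower and 9 equal in siTAZ, with a median of 0. In siYAP it had 13 higher, 7 lower and 10 equal, also with a median of 0. To set beside both lists, 29.7% of all kept genes were higher, 21.7% lower and 48.5% equal in siTAZ. The shares of all kept genes in siYAP were 27%, 21.7% and 51.3%.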
